A study of Xenopus tropicalis with 20 samples.

Results

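The genes of the cytosolic ribosomal proteins were examined in liver RNA of 20 Xenopus tropicalis (western clawed frog) females. A gene was a member if its name was rpl or rps with a number, rplp0, rplp1, rplp2 or rpsa, if its mean FPKM over the 20 libraries was at least 1, and if Cufflinks had marked its estimate as sound (status OK) in every library. FPKM is the number of fragments corrected for transcript length and for the depth of the library, so levels can be compared between genes. Of 20372 named genes, 78 carried such a name and 75 met the other conditions, 45 of the large and 30 of the small subunit. The name rpl3l, a paralog of rpl3, had a mean of 0.42 FPKM and did not meet the level condition, while the lowest member, rpl7l1, had 111 FPKM. The names rpl31 and rpl34 had no sound estimate in 1 and 7 libraries and were left out.

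The females fell into 4 groups of 5. F2 mixture and F1 mixture were the second-generation and first-generation offspring of founder (F0) frogs kept from tadpole to mature adult at 50 ng/L with a mixture of triclosan, an antimicrobial, and benzo[a]pyrene, a combustion product that activates the aryl hydrocarbon receptor. F2 control and F1 control were the matching offspring of founders without the mixture, and no F1 or F2 female was exposed herself. Whether each compound or their sum was at that concentration is not stated, and the labels name neither animals nor clutches, so p-values measure the spread between these libraries. The design text says that the control reads had been part of an earlier series, so mixture ancestry and a batch of libraries cannot be told apart, and the same holds for a generation and a batch, since no run or date is given. Libraries are named here by group and by the number in their label.

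The cytosolic ribosome is built from ribosomal RNA and a set of proteins, nearly all of which are present in a single copy. The small subunit reads the mRNA, and the large subunit joins amino acids and passes the new chain through its exit tunnel. In vertebrates the mRNAs of these proteins begin with a run of pyrimidines (TOP mRNAs), through which the growth kinase mTOR sets how strongly they are translated. They are among the most abundant mRNAs of any growing cell, and the liver, which secretes most plasma proteins and in egg-laying females also yolk protein, carries large numbers of ribosomes.

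The deposited limits of the FPKM values corresponded to 7896246 to 16704801 fragments per library, with limits read as counting error, and 8466 to 10637 genes reached an FPKM of 1. FPKM were divided by a factor per library (0.717 to 1.26) that equalised 6971 genes detected throughout, and these scaled FPKM are the levels given below. For the members the half-width of the deposited limits had a median of 1.25% of the value (0.650% to 8.36%), so counting error was small beside the spread between libraries. The libraries carried liver markers: the summed scaled FPKM of 12 hepatocyte genes was 12482 to 27968 in F2 mixture, 15280 to 29281 in F2 control, 11193 to 23131 in F1 mixture and 7282 to 14061 in F1 control libraries. Markers of nucleated red blood cells (18 listed, 16 in the tables) summed to 17357 to 172615, 58257 to 167159, 25347 to 81028 and 18056 to 102178 scaled FPKM in the same order of groups, with hbe1 listed at 0 throughout F2 mixture. Ovary markers summed to at most 4.28 scaled FPKM in any library.

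Ribosomal protein mRNAs made up 48.3% to 62.5% of the summed FPKM in F2 mixture libraries, 44.2% to 56.3% in F2 control, 30.5% to 53.8% in F1 mixture and 28.8% to 45.1% in F1 control. The sum covered named genes with a sound estimate, which left out 5 to 12 genes per library, in some libraries rpl31 or rpl34. The level of a library was taken as the median over the 75 genes of the log2 deviation from each gene's mean over the 20 libraries. It was 1.32, 0.42, 1.14, 0.12 and 0.85 in F2 mixture libraries 1 to 5, and 1.19, 0.14, 0.46, 0.23 and 0.42 in F2 control libraries 1 to 5. In F1 it was −1.01, 0.25, −1.22, −0.09 and 0.54 in mixture libraries 1, 4, 8, 9 and 13, and −0.47, −1.83, −0.03, −1.28 and −1.40 in control libraries 1, 2, 3, 4 and 6. Every F2 control library was above every F1 control library, while the mixture groups of the generations overlapped, as did mixture and control within each generation. The group means were 0.77 ± 0.50 in F2 mixture, 0.49 ± 0.42 in F2 control, −0.31 ± 0.78 in F1 mixture and −1.0 ± 0.73 in F1 control (SD, n = 5 each). The slope of log2 level on log2 gene span, over all genes tested, also differed between libraries. It averaged −0.319, −0.346, −0.287 and −0.234 in the same order of groups. With a trend on gene span removed, the ribosomal level averaged 0.76, 0.40, −0.29 and −0.89. The part of this slope in the level was not tested.

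**Figure D1:**
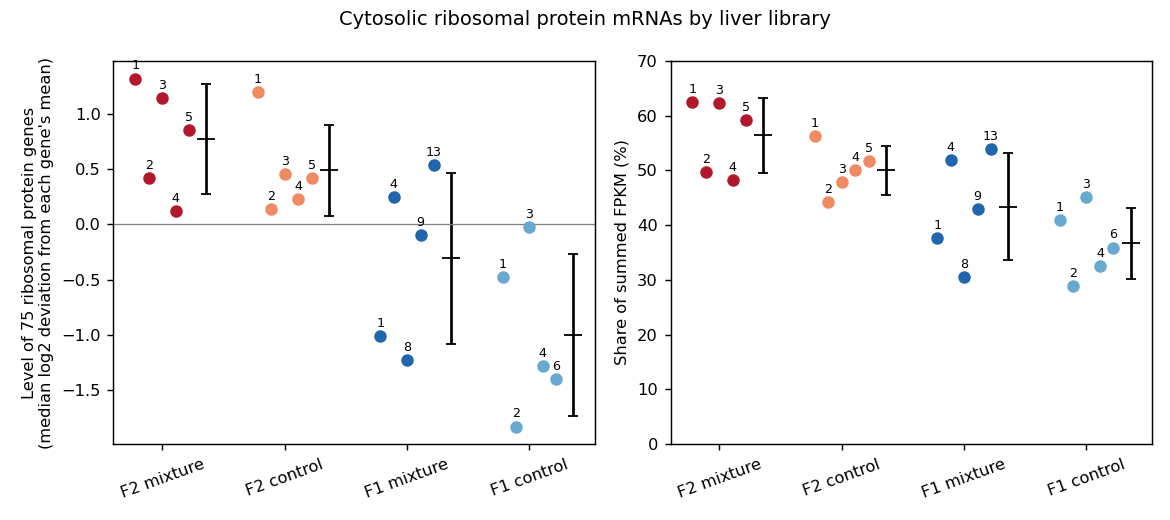
Level of the 75 ribosomal protein genes in each library (left, log2) and their share of the summed FPKM of named genes with sound estimates (right, percent). The library number stands beside each point, and bars give the group mean ± SD (n = 5). F2 control libraries all lie above F1 control libraries on the left, and the 3 highest shares, near 60%, are F2 mixture 1, 3 and 5.

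The genes moved together from library to library. The correlation of a gene with the median of the other members over the 20 libraries had a median of 0.964, and 63 of 75 genes were above 0.9; the libraries share depth, scaling and group, so this is a description only. Among the genes least tied to the rest were rps27l (0.20), the paralog of rps27 that is a p53 target in human cells, and rpl23 (0.59), a large subunit protein at the face between the subunits. The mean FPKM ran from 111 in rpl7l1, 138 in rps27l and 161 in rpl22l1 to 16318 in rpl23, 17140 in rplp1 and 21110 in rpl37. The 3 lowest were all paralogs of another member, and the next gene above them, rps15a, was at 1111.

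The comparison of the generations without mixture ancestry gave the largest number of calls. In F2 control against F1 control livers, 58 of 75 genes were higher and 0 lower at an adjusted p under 0.05 (limma, Benjamini-Hochberg over 10228 genes), where 55.9% of all genes tested passed and 27.4% were higher; quantile normalization, which forces all libraries to the same distribution, split the calls into 36 higher and 20 lower, with 13 of the 58 genes below 0. The median log2 fold change of the 75 genes was 1.54, a 2.91-fold difference, against −0.03 over all genes tested, and it was 0.24 under quantile normalization. Of all 10228 genes, quantile normalization called 2902 higher and 2897 lower. The members held 44.2% to 56.3% of the summed FPKM in F2 control and 28.8% to 45.1% in F1 control libraries. Making the distributions equal can take out part of a shift that such abundant genes share. Its part in the smaller values of members under it, in this and the other comparisons, was not tested. Without the scaling factors the ribosomal level averaged 0.41 in F2 control and −0.83 in F1 control, against 0.49 and −1.0 with them. The part of these factors in the difference was not tested either. The 58 calls fell on 34 of 45 large subunit and 24 of 30 small subunit genes. Every F2 control library was above every F1 control library in 45 of 75 genes, where this held for 20.3% of all genes. Among 14 tested red cell markers 5 were also higher and 0 lower in F2 control. Their mean log2 level was 7.28 ± 0.43 in F2 control against 6.0 ± 0.41 in F1 control (SD, n = 5). With that level as a covariate 38 ribosomal protein genes were called, where 4207 of 10228 genes tested were called. The red cell level did not overlap between these groups (6.75 to 7.93 in F2 control, 5.41 to 6.44 in F1 control). This covariate therefore cannot be cleanly told apart from the generation here. Of 11 tested hepatocyte markers 5 were higher and 0 lower, and all 11 had a positive log2 fold change. The median was 1.26 for these markers and 1.38 for the red cell markers. It was −0.33 for leukocyte, 0.07 for endothelial, −0.69 for stellate and 0.62 for bile duct markers. The part of the hepatocyte markers in the result was not tested. In whole liver, more RNA per cell and more cells of one type cannot be told apart.

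Around the peptidyl transferase centre and the exit tunnel, rpl3, rpl4, rpl8 and rpl10 were all higher in F2 control than in F1 control livers. The level of rpl8 was 8666, 4505, 5529, 4701 and 5177 scaled FPKM in F2 control libraries, against 1369, 608, 2373, 741 and 778 in F1 control libraries, which did not overlap. In the mixture line it was 8725, 5056, 7300, 2918 and 6543 in F2 libraries, against 944, 3259, 830, 2477 and 4242 in F1 libraries. Here F2 mixture 4 lay under 2 of the F1 mixture libraries. The log2 fold change of rpl8 was 2.43 ± 0.46 (SE) between the control groups and 1.57 ± 0.46 between the mixture groups, with limma adjusted p of 0.000211 and 0.0291. For rpl4, which lines the exit tunnel, the same values were 2.70 ± 0.44 and 1.67 ± 0.44 (adjusted p = 6.02e-05 and 0.0187). For rpl3 they were 2.15 ± 0.32 and 1.01 ± 0.32, and for rpl10, which joins late in assembly, 2.69 ± 0.44 and 1.36 ± 0.44, all past the threshold. Between the mixture groups the calls of rpl3, rpl4, rpl8 and rpl10 were lost with only those 2 groups in the model. They were also lost with the replicate number as a block. In the 20 fits without 1 library they were lost 7, 2, 4 and 13 times, in that order of genes.

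The stalks of the large subunit held genes that passed and genes that did not. In the P-stalk, which recruits elongation factors, rplp0 had 7411, 4431, 5675, 4232 and 5594 scaled FPKM in F2 control libraries, against 958, 561, 1835, 718 and 796 in F1 control libraries, with no overlap. Its log2 fold change was 2.59 ± 0.39 (limma adjusted p = 2.47e-05), and that of rplp2, which forms the tip of the stalk with rplp1, was 1.36 ± 0.32 (adjusted p = 0.00149) and −0.021 under quantile normalization. For rplp1 the value was 0.61 ± 0.34 and for rpl12, at the base of the stalk, 0.62 ± 0.34, and neither passed (adjusted p = 0.138 and 0.123). On the opposite side rpl10a, the protein of the L1 stalk that guides the outgoing tRNA, was 2.52 ± 0.40 higher on the log2 scale (adjusted p = 4.56e-05). The partners of the free 5S RNA particle that binds Mdm2 when assembly fails, rpl5 and rpl11, were higher by 2.28 ± 0.49 and 1.76 ± 0.43 (adjusted p = 0.00064 and 0.0019). The call of rpl11 was lost under quantile normalization (limma adjusted p = 0.258).

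Among the small subunit genes, rpsa encodes a protein on the solvent side near the exit of the mRNA channel. It had 7079, 4129, 3877, 3186 and 4530 scaled FPKM in F2 control libraries, against 910, 465.8, 1248, 622 and 643 in F1 control libraries, and the groups were far apart. The log2 fold change was 2.58 ± 0.37 (limma adjusted p = 1.57e-05). That of rps14 was 1.92 ± 0.39, and that of rps3, at the mRNA entry, 1.64 ± 0.41, both past the threshold. Smaller differences that also passed were found for rps27a, made as a fusion with ubiquitin, at 1.60 ± 0.46, rps26 at 1.50 ± 0.43, rps6, the substrate of the S6 kinases, at 1.10 ± 0.37, and rps19, the gene most often mutated in Diamond-Blackfan anaemia in humans, at 0.99 ± 0.41. Under quantile normalization those of rps6 and rps19 were −0.22 and −0.45, and rps3, rps26 and rps27a no longer passed. With the red cell covariate rps6, rps19, rps26 and rps27a did not pass. The call of rps19 was also lost in 9 of the 20 fits without 1 library. Among the 17 genes that did not pass were rpl7a, rpl12, rpl19, rpl21, rpl23, rpl32, rpl35, rpl37, rpl37a, rpl38, rplp1, rps10, rps25, rps27 and rps27l.

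The same comparison in the mixture line, F2 mixture against F1 mixture, gave 27 genes higher and 0 lower, where 14.2% of all genes tested passed, 6.06% being higher and 8.11% lower. The median log2 fold change was 1.13, against −0.04 over all genes, and 0.30 under quantile normalization. Quantile normalization called 18 members higher and 2 lower, where 764 and 749 of 10228 genes tested were. The calls fell on 19 of 45 large subunit and 8 of 30 small subunit genes, and 25 of the 27 were also called in the control line, with rpl12 and rpl32 as the exceptions. Every F2 mixture library was above every F1 mixture library in 8 genes and below in 0 (3.19% and 5.44% of all genes did so): rpl12, rpl14, rpl17, rpl22, rpl26, rplp2, rps3a and rps21. The smallest p belonged to rpl18, at 1.70 ± 0.38 (limma adjusted p = 0.00805), followed by rpl14 at 1.66 ± 0.39 (adjusted p = 0.0104) and rps21 at 1.77 ± 0.47 (adjusted p = 0.0182). Across the 75 genes the fold changes of the control and the mixture line, which share no library, had a Pearson r of 0.72 and a Spearman rho of 0.76; genes of 1 library are not independent. The median log2 fold change was −0.32 for the hepatocyte markers and 0.05 for the red cell markers. The count was 3 with only these 2 groups in the model, 9 with no level filter, 10 with libraries weighted by their fit and 41 with the trend on gene span removed. Over all genes these settings called 509 of 10228, 1349 of 18686, 784 of 10228 and 1586 of 10228. With the replicate number as a block 0 members were called, with the trend on gene span kept or removed. Of 10228 genes these fits called 198 and 228. That block also tied same-numbered libraries that were not taken as pairs. The count of members was 2, 2 and 42 without F1 mixture 1, 8 and 13 and 4 and 8 without F2 mixture 1 and 3. Fits without 1 library called 778 to 1509 of all genes.

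**Figure D2:**
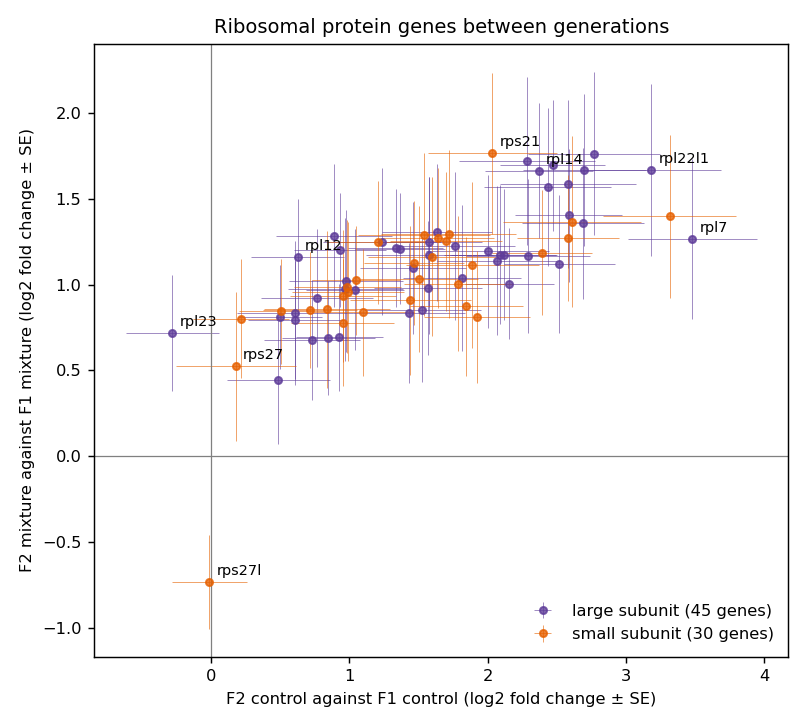
Log2 fold change ± SE of each of the 75 genes in F2 control against F1 control (horizontal) and in F2 mixture against F1 mixture (vertical), coloured by subunit. Nearly all points lie above 0 on both axes, with rpl7 and rpl22l1 far to the right and rps27l alone below 0 on the vertical axis.

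The comparison of mixture with control livers asked whether descent from exposed founders went with a change in unexposed daughters. In F2, 4 genes were higher and 1 lower in mixture livers, where 25.7% of all genes tested passed, 11.3% being higher and 14.5% lower. They included rpl23 and rpl12, which were higher, and rpl7, which was lower. The median log2 fold change was 0.30, against −0.04 over all genes, with 53 positive and 22 negative values.

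The protein of rpl23 is known in human cells to bind Mdm2 outside the ribosome, and its gene (chromosome 10, 10661861 to 10667786, coordinates of the deposited tables, which match the assembly UCB_Xtro_10.0) had the smallest p of the 5. Its level was 35438, 12922, 35714, 25324 and 26619 scaled FPKM in F2 mixture libraries 1 to 5, against 14544, 8184, 11292, 9420 and 9740 in F2 control libraries. Only F2 mixture 2 fell inside the control range. The log2 fold change was 1.30 ± 0.34 (SE; limma adjusted p = 0.00889), and the call was kept under each alternative run for that gene.

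At the base of the P-stalk, rpl12 (chromosome 8, 2653368 to 2660647) had 7435, 5412, 8550, 6634 and 6628 scaled FPKM in F2 mixture libraries, against 4690, 3032, 3226, 3209 and 3224 in F2 control libraries. Its groups did not overlap, which was true in this direction of 7.95% of all genes, and its log2 fold change was 1.0 ± 0.34 (limma adjusted p = 0.0363).

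The large subunit gene rpl7 (chromosome 6, 121088503 to 121095956) went the other way. It had 3620, 4249, 1828, 809 and 2959 scaled FPKM in F2 mixture libraries, against 10789, 5434, 5874, 4423 and 7110 in F2 control libraries. No F2 mixture library reached the lowest F2 control library, which in this direction was true of 7.37% of all genes. The log2 fold change was −1.47 ± 0.47 (limma adjusted p = 0.026). In F1 the gene had 536, 1416, 439, 1186 and 2095 scaled FPKM in mixture libraries, against 699, 395, 979, 396 and 583 in control libraries, and these groups overlapped.

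The count of 5 in F2 depended on single libraries. It was 2, 9, 1, 2 and 3 without F2 mixture 1, 2, 3, 4 and 5, and 2, 3, 3 and 1 without F2 control 2, 3, 4 and 5. The call of rpl7 was lost without F2 mixture 3 or 4 or F2 control 1 or 5, and that of rpl12 without any of F2 mixture 1, 3, 4 and 5 and F2 control 2 to 5, and with no level filter. F2 mixture 2 also had the highest mean log2 level of the red cell markers of all 20 libraries, 8.27. The groups averaged 6.81 ± 0.96 in F2 mixture and 7.28 ± 0.43 in F2 control (SD, n = 5). Of these markers 1 of 14 was lower in F2 mixture. With their mean as a covariate 5 ribosomal protein genes were called, where 2510 of 10228 genes tested were called. Of 11 tested hepatocyte markers 4 were lower in F2 mixture, and their part in these results was not tested. In the authors' deposited table (Cuffdiff), rpl23 and rpl7 were the 2 of 75 genes marked significant, with a mean FPKM of 32243 in mixture and 13195 in control livers for rpl23 (log2 fold change 1.29, q = 0.0358) and 2859 and 7346 for rpl7 (−1.36, q = 0.0315).

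**Figure D3:**
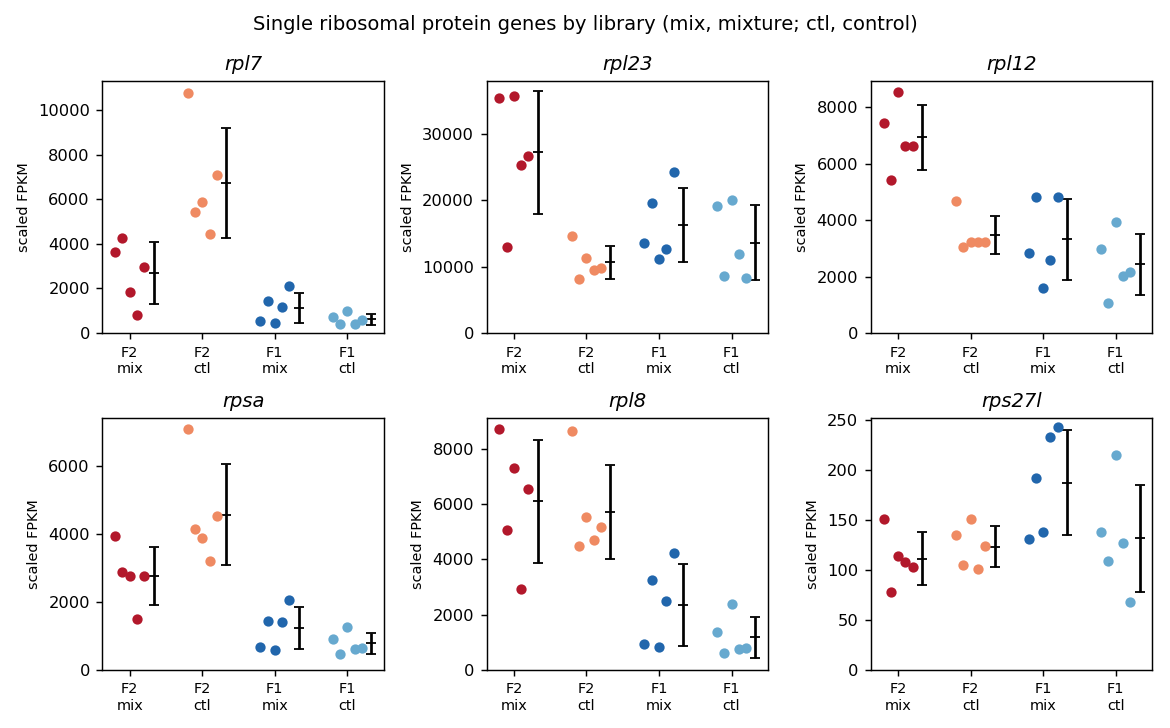
Scaled FPKM of single ribosomal protein genes in each library, with bars for the group mean ± SD (n = 5). The 5 F2 mixture points of rpl7 lie below and those of rpl12 above all F2 control points, and the mean of rpsa is highest in F2 control.

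In F1, 0 of 75 genes passed the test (limma; 0% of all genes tested passed), while 11 had an unadjusted p under 0.05 and all 75 had a positive log2 fold change of mixture against control. The median was 0.68, against −0.02 over all genes, and 0.05 under quantile normalization. The red cell and hepatocyte markers lay as far from 0, with medians of 0.76 (12 of 14 positive) and 0.69 (8 of 11 positive). The other marker lists lay nearer 0, at −0.05 for leukocytes, −0.02 for endothelial, 0.09 for stellate and 0.10 for bile duct cells. The part of any marker list in the shift of the ribosomal protein genes was not tested. Estimated fragments per library did not overlap between these groups, at 13538277 to 16704801 in F1 mixture and 7896246 to 12057469 in F1 control. The part of depth in the shift was not tested either. The smallest adjusted p was 0.356, for rps26, a small subunit protein at the mRNA exit, with a log2 fold change of 1.06 ± 0.43. The libraries within each group were far apart: rps27a had 1919, 5720, 1554, 4285 and 6740 scaled FPKM in F1 mixture libraries, against 3156, 907, 4658, 1589 and 1346 in F1 control libraries. Most libraries of each group fell within the range of the other, and no gene separated the groups (0.686% and 0.912% of all genes did, with mixture above and below). Weighting libraries by their fit called 36 of 75 genes, all higher, where 1129 of 10228 genes tested were called, 502 of them higher. The authors' deposited table marked 0 of 75 as significant, with a median log2 fold change of 0.88 and a lowest q of 0.0721 for rpl35a.

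The difference between the mixture effects, F2 minus F1, passed for rpl7 alone, which was lower, where 20.1% of all genes passed, 9.52% being higher and 10.5% lower. It is the same quantity as the difference between the generation effects of the mixture and control lines. In the main fit a generation effect of another size in the mixture line was thus called in no other ribosomal protein gene. Quantile normalization and weighting libraries by their fit called more members, where they called 2204 and 3864 of 10228 genes tested. For rpl7 the difference was −2.21 ± 0.66 on the log2 scale in the main fit (limma adjusted p = 0.0246). With red cell markers as a covariate the limma adjusted p was 0.0849, and with the replicate number as a block it was 0.144. That block was fitted over all 20 libraries, so it also tied same-numbered F1 libraries, which were not taken as pairs. F1 libraries whose number occurs in no other group carried no weight in it. The value of 0.144 is therefore not that of a fit with F2 pairing alone. The median over the 75 genes was −0.41, against −0.03 over all genes, −1.43 over the hepatocyte markers (5 of 11 lower) and −1.25 over the red cell markers (1 of 14 lower). The count of 1 was 4 and 5 without F1 mixture 1 and 8, 8 without F1 control 3, and 2 and 4 without F2 mixture 1 and 2.

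To look at the genes against each other rather than at their common level, each library was also scaled to the median of its ribosomal protein genes, a setting chosen after the data were seen. Values by library are given for rpl7 and rpl23, which were among the members with the smallest p in F2 mixture against F2 control. The share of all genes whose groups do not overlap on this scale was not computed. Against the other members of the same library, the log2 level of rpl7 was 1.48, 1.54, 1.33, 1.16 and 1.65 in F2 control libraries, and −0.22, 0.90, −1.03, −1.19 and −0.05 in F2 mixture libraries. It lay between −0.72 and −0.23 in F1 mixture and between −0.81 and −0.14 in F1 control libraries, all below each F2 control library. The mirror case was rpl23, at −1.25, −1.03, −0.88, −0.91 and −1.05 in F2 control libraries, against −0.09, −0.65, 0.10, 0.62 and −0.04 in F2 mixture libraries, with no overlap.

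This scaling sets the ribosomal level of all libraries equal, takes the variation that the members share out of them and passes it to all other genes. Near-equal numbers of members above and below 0 and the share of all genes called therefore follow in part from the scaling in each comparison, and nothing is read from them. On this scale 12 genes were higher and 12 lower in F2 mixture against F2 control, where 2.69% of all genes passed, 0.186% being higher and 2.5% lower. Those lower included rpl7 (−1.75 ± 0.26, limma adjusted p = 0.000522), rpl3 (−1.08 ± 0.24), rpsa (−1.02 ± 0.17), rps14, rpl10, rpl10a, rps15a, rps16, rplp0, rpl27a and rpl30. Those higher included rpl23 (1.01 ± 0.18, adjusted p = 0.00222), rpl32, rpl12 (0.72 ± 0.19), rps27, rplp1, rps25, rpl36a, rpl17, rpl21 and rpl37. The 3 with the highest level of all members, rpl37, rplp1 and rpl23, were among those higher. Across the 75 members the log2 fold change of F2 control against F1 control had a Spearman rho of −0.57 with log2 mean FPKM (Pearson r −0.33). The part of the mean FPKM of a gene in this balance was not tested. In F2 control against F1 control the balance differed in 54 genes, 27 in each direction, where 73.2% of all genes passed, 1.02% being higher and 72.2% lower. In F2 mixture against F1 mixture it differed in 13, 8 higher and 5 lower (53.3% of all genes), in F1 mixture against F1 control in 0 (0.00978% of all genes), and in the difference of the mixture effects in 1, rpl23, at 1.41 ± 0.26 (0.0391% of all genes; adjusted p = 0.029).

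**Figure D4:**
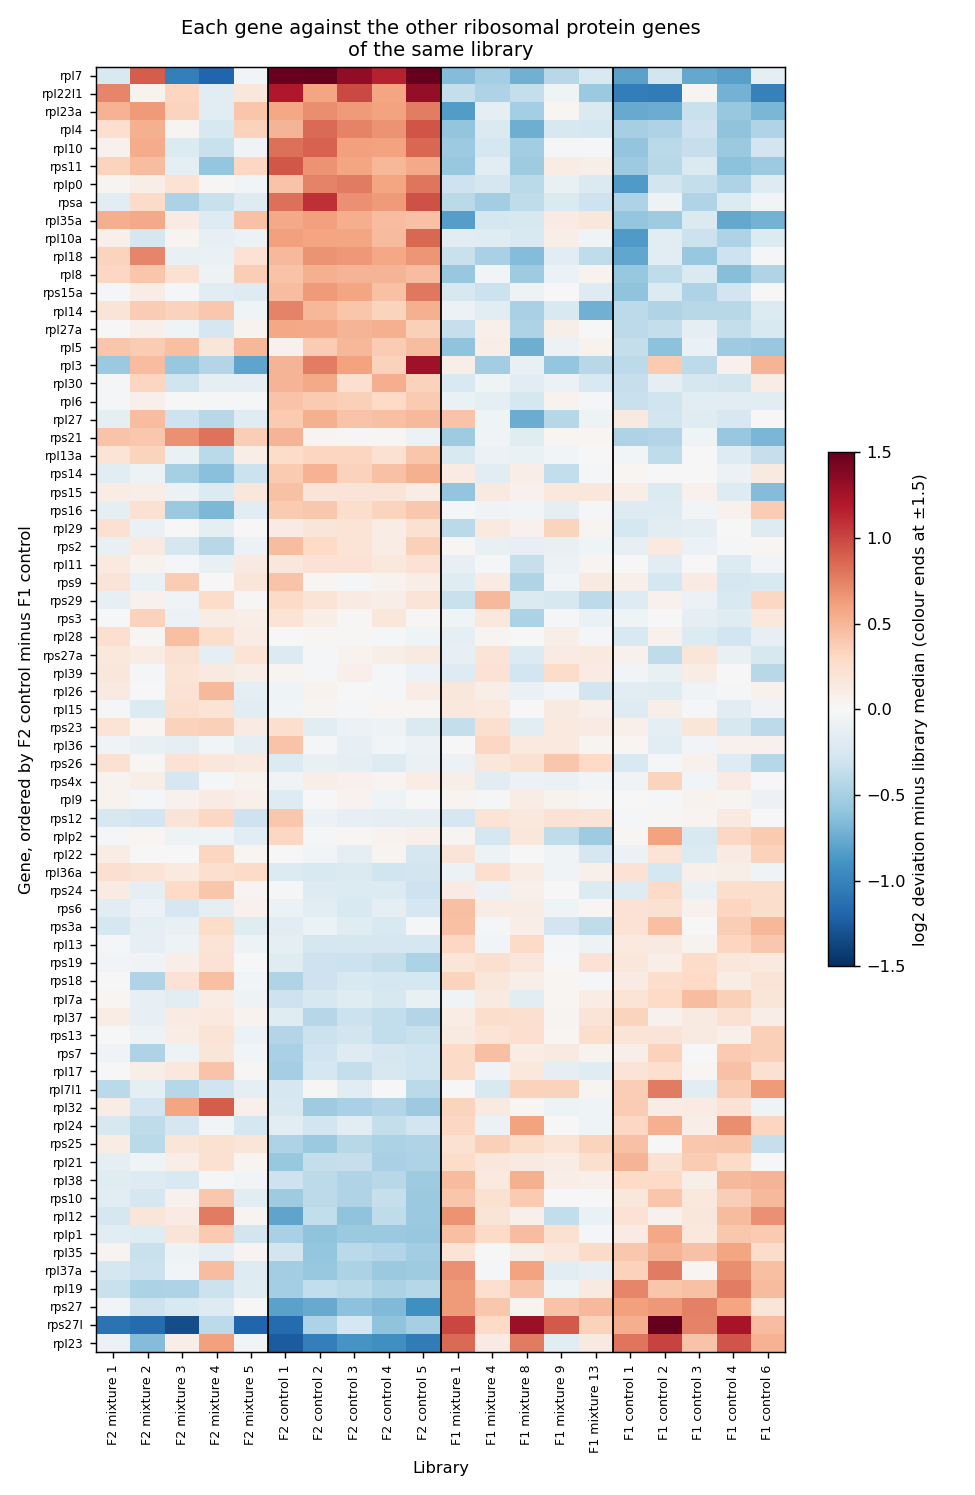
Log2 level of ribosomal protein genes (rows) against the median of the ribosomal protein genes of the same library (columns, by group), with rows ordered by F2 control minus F1 control. The 5 F2 control columns are red at the top (rpl7, rpl22l1) and blue at the bottom (rpl23, rps27), and rps27l is blue in all F2 and red in all F1 columns.

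For the paralogs and their parent genes values are given side by side, and the differences between them were not tested. The level of rpl22l1, whose product can take the place of that of rpl22 in mouse ribosomes, was 594, 186, 309, 199 and 374 scaled FPKM in F2 control libraries, against 38.6, 14.3, 113, 27.4 and 20.2 in F1 control libraries. These groups did not overlap, and the log2 fold change was 3.18 ± 0.50 (limma adjusted p = 3.94e-05), while that of rpl22 was 1.33 ± 0.34 (adjusted p = 0.0028) and −0.045 under quantile normalization. The level of rps27l was 151, 78.1, 114, 108 and 103 in F2 mixture, 135, 105, 151, 101 and 124 in F2 control, 130, 192, 137, 233 and 243 in F1 mixture, and 138, 109, 215, 127 and 67.7 scaled FPKM in F1 control libraries. It was the 1 member with a lower mean in F2 mixture than in F1 mixture livers, by a log2 fold change of −0.73 ± 0.27 that did not pass (adjusted p = 0.0754), and its parent rps27 was at 0.52 ± 0.43 (adjusted p = 0.429). In F1 mixture against F1 control the log2 fold changes were 0.56 ± 0.27 for rps27l and 0.54 ± 0.43 for rps27, and neither passed. Relative to the other members rps27l was lower in F2 in both lines, by −1.81 ± 0.30 in mixture and −1.50 ± 0.30 in control livers (limma adjusted p = 0.000618 and 0.000211). On that scale 52.9% and 72.2% of all genes tested were lower. Without that scaling the log2 fold change of rps27l between the control groups was −0.01, so nearly all of the −1.50 follows from the rise of the other members. Between the mixture groups it was −0.73 without that scaling, so the −1.81 follows from that rise in part. For rpl7l1, a paralog of rpl7 with a role in large subunit assembly in human cells, the log2 fold change was 0.93 ± 0.31 between the control groups (adjusted p = 0.0163) and 0.16 ± 0.31 in F2 mixture against F2 control, where rpl7 fell. How reads shared by paralogs or by processed copies were assigned was not stated in any source used.

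Other translation genes were read in lists; over all genes, 27.4% were higher and 28.5% lower in F2 control against F1 control, 6.06% and 8.11% in F2 mixture against F1 mixture, and 11.3% and 14.5% in F2 mixture against F2 control. Genes whose products bind the ribosome or are made with it (9 tested, of which rpl7l1 is also a member) were all higher in F2 control against F1 control, and 3 in F2 mixture against F1 mixture; naca, a chaperone subunit at the exit tunnel, had 2.94 ± 0.48 and 1.87 ± 0.48 (limma adjusted p = 5.1e-05 and 0.0154). Of 20 elongation factors and other TOP mRNAs, 17 were higher and 0 lower in the control line and 11 and 0 in the mixture line. The elongation factor eef1a1 averaged 12558 scaled FPKM in F2 control against 3179 in F1 control livers (2.03 ± 0.31, adjusted p = 3.3e-05), and eef1b2, its exchange factor, rose by 2.92 ± 0.46. In F2 mixture against F2 control these lists had 0 higher and 1 lower (serbp1, which binds idle ribosomes, −0.58 ± 0.18) and 2 higher and 1 lower. Mitochondrial ribosomal proteins, which serve a separate ribosome, numbered 76, of which 29 were higher and 5 lower in F2 control against F1 control and 5 and 2 in F2 mixture against F1 mixture. In F1 mixture against F1 control 0 genes of any list passed.

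Genes of ribosome biogenesis, the nucleolar factors that make and export the subunits, had another balance. Of 64 tested, 13 were higher and 26 lower in F2 control against F1 control (median log2 fold change −0.38), and 25 were higher and 3 lower in F2 mixture against F2 control (0.35). The F2 control libraries enter both comparisons, with opposite sign. Opposite values in them, here and for the genes below, are therefore not independent of each other. The ribosomal RNA methyltransferase gene nop2 averaged 12.3 scaled FPKM in F2 mixture against 4.2 in F2 control livers, a log2 fold change of 1.34 ± 0.18 (limma adjusted p = 4.9e-05), and had −1.34 ± 0.18 in F2 control against F1 control. The gene sbds, whose product releases a joining block from the large subunit, moved the other way, at −1.08 ± 0.28 and 2.19 ± 0.28. Of 34 genes of growth control through mTOR and Myc, 6 were higher and 6 lower (17.6% each) in F2 mixture against F2 control and 8 and 11 (23.5% and 32.4%) in F2 control against F1 control, shares near those of all genes. Among them lamtor5, a part of the lysosomal anchor of mTOR complexes, had −1.20 ± 0.26 and 2.39 ± 0.26, and sesn3, an inhibitor of mTOR signalling, 1.23 ± 0.27 and −2.05 ± 0.27, all past the threshold. Of 17 genes of ribosome surveillance and the p53 response, 3 were higher and 2 lower (17.6% and 11.8%) in F2 mixture against F2 control and 5 and 6 (29.4% and 35.3%) in F2 control against F1 control, also near those of all genes; ccng1, a p53 target, had −1.26 ± 0.32 and 2.89 ± 0.32. In F2 mixture against F1 mixture the 3 lists had 9, 5 and 2 genes higher and 2, 0 and 0 lower.

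**Figure D5:**
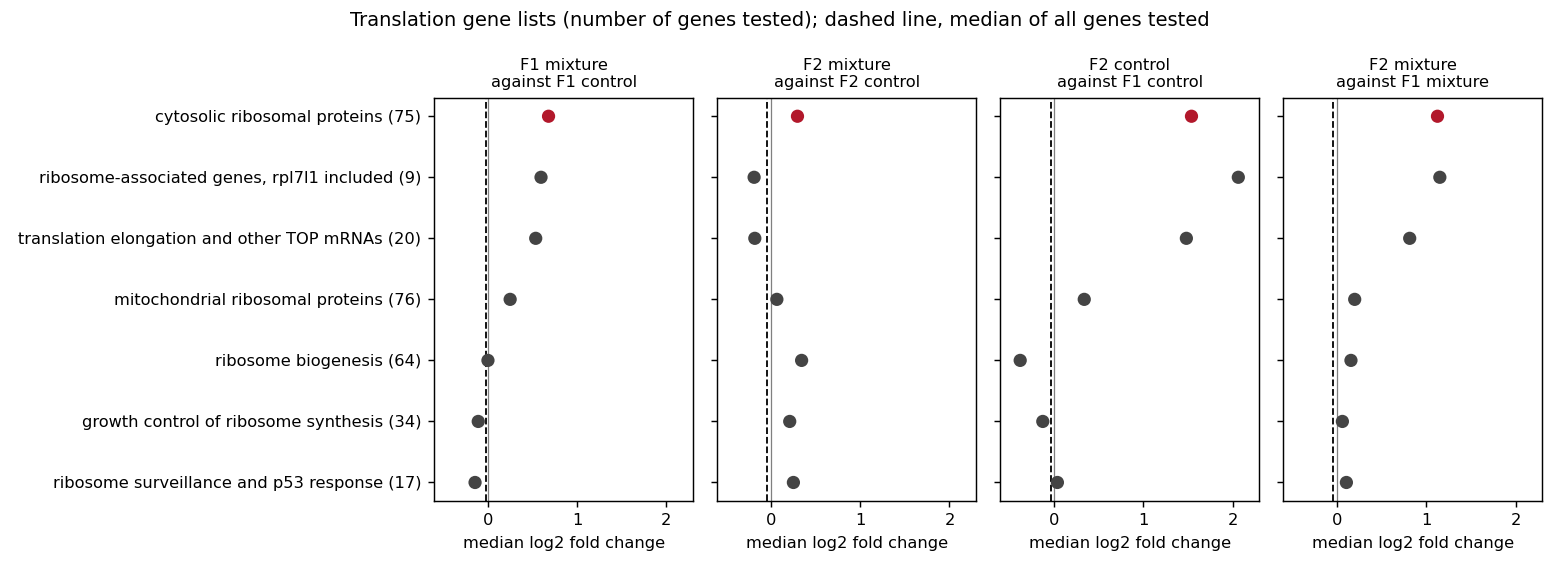
Median log2 fold change of the ribosomal protein genes (red) and of 6 other translation gene lists (grey) in 4 comparisons, with the number of genes tested in brackets and a dashed line at the median of all genes tested. Ribosomal protein, ribosome-associated and elongation genes lie near 1.5 to 2 in F2 control against F1 control, while the biogenesis list lies below 0 there.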

How the data were processed

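Liver RNA (15 mg per biological replicate) was made into TruSeq Stranded mRNA libraries and sequenced as 75 bp reads, per the labels' protocols. The authors made the deposited FPKM per gene, with lower and upper limits, with Trimmomatic 0.32.1, HISAT2 and Cufflinks 0.0.7, and 2 Cuffdiff 0.0.7 tables with group means in FPKM, log2 fold changes, p-values and q-values, per the file headers and the submitters' processing notes. The build, not given in the sources used here, was checked: 99.0% of the 20372 genes and 74 of 75 members had the start and end of UCB_Xtro_10.0. Lines with no gene name (70) were dropped, with 0.000624% to 0.00856% of the summed FPKM.

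Values not marked sound were set to missing. FPKM were divided by each library's median ratio to the geometric mean of 6971 genes, and log2 was taken after adding a pseudocount of 1, so fold changes are on the log2(scaled FPKM + 1) scale. limma 3.58.1 (R 4.3.3) with a variance trend was fitted to 10228 genes (mean FPKM of at least 1 and at least 3 sound values per group) over all 20 libraries with 4 group means and 5 contrasts, two-sided, with Benjamini-Hochberg adjustment over all genes and a threshold of 0.05. Depth was estimated from the deposited limits, taken as 2 Poisson SD; for 28 members they were 3% to 5% of the value, wider than counting error would give, so the sum understates depth. The fit was tested on simulated data.

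Members, lists and tests were chosen with earlier results of these data known. Genes named are those with a known role fixed by name, the paralogs with their parents, the 3 members with the smallest p in each direction and contrast, the 3 highest, lowest and least correlated, up to 20 members past the threshold per contrast, and up to 6 genes of each other list; complete counts of 17 or fewer and the members past the threshold after scaling to the ribosomal median were named after their values were seen. Same-numbered F2 mixture and F2 control libraries deviated together (r 0.385, 0.369, 0.154, 0.104 and 0.169), so the numbers were taken to pair them. The block of the alternative fits used the numbers in all 4 groups. No libraries were identical (highest r 0.967). For F1 mixture 9 and 13 the file name carried the other's number, which does not change the group. Some members are counted in the totals but are not reported here by name, nor among the single-gene values recomputed under the alternatives.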

Additional observations from a re-analysis of the deposited data

Results flagged for a closer look

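In 9 of 92 sets of 5 libraries examined gene by gene, 1 library lay far from the other 4 by Dixon's criterion, which chance alone meets in about 1 of 20. F2 control 1 was the high library in 7 of them, with 4690 scaled FPKM for rpl12, 8666 for rpl8, 11922 for rps6, 11414 for rpl22, 203 for rpl7l1, 6514 for rpl18 and 13109 for rpl14; these genes share the library, whose ribosomal level was the highest of its group (1.19 on the log2 scale, against 0.14 to 0.46 in the other 4). F1 control 3 was the high library in the other 2, with 1424 scaled FPKM for rpl10a and 113 for rpl22l1. Without F2 control 1, 48 of 75 genes were called in F2 control against F1 control, and without F1 control 3, 66.

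The mixture effect on rpl7 differed between the generations by −2.21 on the log2 scale (F2 minus F1). The gene had a lower level in 5 of 5 F2 mixture libraries than in any F2 control library, while F1 mixture and F1 control libraries overlapped.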

How the results depend on the processing

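Of 2783 log2 fold changes of called ribosomal protein genes that were recomputed under the alternatives other than the ribosomal median, 2381 kept direction and side of the threshold, 390 no longer passed and 12 reversed, all in F2 control against F1 control under quantile normalization: rpl13 −0.22, rpl17 −0.37, rpl22 −0.045, rpl24 −0.66, rplp2 −0.021, rps13 −0.58, rps18 −0.38, rps19 −0.45, rps24 −0.038, rps3a −0.44, rps6 −0.22 and rps7 −0.32. The 2783 values include those of the 20 fits without 1 library, which changed no processing step and made up most of them. Without scaling, the median of all genes moved to −0.11, −0.10, −0.22 and −0.21 (F1, F2, F2 control against F1 control, F2 mixture against F1 mixture) and members called in the difference of the mixture effects numbered 2. Calls among ribosomal protein genes were as follows. For F1 mixture against F1 control, library weights (arrayWeights) gave 36. For F2 mixture against F2 control, quantile normalization gave 21 (14 higher, 7 lower), no filter 3, library weights 17, the gene span trend removed 9, that with the replicate block 11, and scaling to the ribosomal median 24. For the difference of the mixture effects, quantile normalization gave 16, a filter at 5 FPKM 2, library weights 15, the span trend removed 2, and the replicate block, the block with span and the red cell covariate 0 each. For F2 control against F1 control the red cell covariate gave 38. For F2 mixture against F1 mixture, no filter gave 9, only the groups compared 3, library weights 10, the span trend removed 41, scaling to the ribosomal median 13, and the replicate block with and without span 0. Medians under quantile normalization were 0.24 for F2 control against F1 control and 0.30 for F2 mixture against F1 mixture. That setting can take out part of a shift shared by abundant genes, and its part in the lost and reversed calls of members was not tested.

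Calls over all genes, in the same order of contrasts, were for F1 1 (quantile), 8 (pseudocount 5), 4 (no filter), 1129 (library weights), 2 (block, with or without span) and 1 (ribosomal median), for F2 1486 (filter at 5 FPKM) and 275 (ribosomal median), for the difference 1358 (filter at 5 FPKM), 3864 (library weights), 380 (block), 1281 (red cell covariate), 495 (block with span) and 4 (ribosomal median), for F2 control against F1 control 3146 (filter at 5 FPKM), and for F2 mixture against F1 mixture 753 (filter at 5 FPKM), 509 (only the groups compared), 784 (library weights), 198 (block), 228 (block with span) and 5448 (ribosomal median). A filter tests fewer genes, and the cause of the other shifts was not tested.

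Leaving out 1 library at a time gave 0 to 0 members in F1, 1 to 9 in F2, 1 to 8 in the difference, 48 to 66 in F2 control against F1 control and 2 to 42 in F2 mixture against F1 mixture. Over all genes it gave 0 to 24, 1774 to 3299, 1382 to 2783, 5222 to 5942 and 778 to 1509, and medians of the members of 0.47 to 0.95, 0.16 to 0.50, −0.69 to −0.17, 1.33 to 1.82 and 0.86 to 1.34. The replicate numbers were taken to pair only the F2 groups, from r of 0.104 to 0.385. Libraries of different numbers were not compared, so the pairing is an assumption, and the main fit did not use it. Same-numbered libraries of the other pairs of groups had r of −0.240 to 0.080 and were not taken as pairs. The block as fitted nevertheless used the number over all 20 libraries. F1 mixture 8, 9 and 13 and F1 control 6, whose numbers occur in no other group, carried no weight in its group means. Counts under the block are therefore not those of a fit with F2 pairing alone. The block changed no other call in F2 mixture against F2 control. The settings on gene span and on the ribosomal median were chosen after the data were seen. The trend on transcript length was not run: the length column is empty, and for 28 of 75 members the limits are too wide to recover a length, so gene span stood in.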

Other observations

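Values outside the comparisons were those of rpl31 and rpl34, large subunit genes left out because not every estimate was sound. For rpl31 the sound values were 5192 to 11004 scaled FPKM in 4 F2 mixture libraries, 6351 to 10834 in 5 F2 control, 2559 to 9606 in 5 F1 mixture and 1448 to 6557 in 5 F1 control libraries. For rpl34 they were 2981 to 8866 in 3 F2 mixture libraries, 6525 in 1 F2 control library, 964 to 4729 in 4 F1 mixture and 2136 to 3829 in 5 F1 control libraries. The name rpl3l, below the level condition, was highest in F1 control 3 and 4, at 1.54 and 1.07 scaled FPKM, and listed at 0 in F1 mixture 13.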
